A study of Mus musculus with 24 samples.

Results

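The enzymes that handle fructose, galactose and newly made glucose were examined through 8 genes in duodenum from male mice null for Cyp27b1: Khk, Dak, Fbp1, G6pc, Pck1, Galk1, Galt and Galm. They were chosen by symbol out of 25410 symbols in the deposited expression tables, all 8 were found with a single entry each, none was listed at 0 in any library, and all 8 passed the filter on low values, so no member was lost. RNA was sequenced from 24 libraries in 4 groups of 6. The groups were rescue diet with 1,25D, rescue diet with vehicle, normal diet with 1,25D, and normal diet with vehicle. 1,25D stands for 1,25(OH)2D3, the hormonal form of vitamin D, which was injected into the peritoneum at 2 ng per g of body weight, 6 h before the mice were killed. All 4 groups lacked Cyp27b1, the enzyme that makes this hormone from its precursor, were weaned at 3 weeks, were 8 weeks old and had eaten a diet deficient in vitamin D. Calcium made up 0.47% and phosphorus 0.3% of the normal diet. On the rescue diet these were 2% and 1.25%, and 20% lactose was added, so an effect of lactose and one of the minerals cannot be told apart. The labels do not tie libraries to animals, and the number of injected mice they give differs from the number of libraries, so a p-value here reflects how far these libraries differ among themselves, which may be technical.

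The first step of fructose use is ketohexokinase (Khk), which makes fructose 1-phosphate. Further on, triokinase (Dak, now named Tkfc) phosphorylates the glyceraldehyde made from it, so that its carbon can enter glycolysis or become glucose. Galactose, a sugar of the disaccharide lactose, is prepared by aldose 1-epimerase (Galm), phosphorylated by galactokinase (Galk1) and exchanged onto a sugar nucleotide by galactose-1-phosphate uridylyltransferase (Galt). Phosphoenolpyruvate carboxykinase (Pck1), fructose-1,6-bisphosphatase (Fbp1) and the catalytic subunit of glucose-6-phosphatase (G6pc) carry out the steps of gluconeogenesis that bypass the irreversible steps of glycolysis. The small intestine is known for its fructose metabolism, and liver, kidney and intestine are the tissues known to express G6pc and Pck1 together.

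Values are RPKM, reads scaled to transcript length and library size, and fold changes and tests are on log2(RPKM + 0.5). Cyp24a1, the hormone's classical target, averaged 473 ± 299 RPKM with 1,25D and 0.284 ± 0.285 RPKM with vehicle on the rescue diet, and 724 ± 219 RPKM with 1,25D and 1.08 ± 1.47 RPKM with vehicle on the normal diet (SD, n = 6 each). The libraries held a whole tissue, in which fewer cells of a type and less RNA per cell cannot be told apart. The sums of 12 enterocyte markers ranged from 1602 to 11242 RPKM over the libraries, and all 12 had a mean of 1 RPKM or more in every group. The sums of 12 exocrine pancreas markers ranged from 25.1 to 77727 RPKM and exceeded 10000 RPKM in 7 libraries. Liver also expresses all 8 enzymes, but Alb, which encodes albumin, was at most 3.44 RPKM, and 7 of 8 hepatocyte markers, Cps1 left out, summed to at most 15.2 RPKM in any library. Cps1, which the intestine also expresses, lay between 130 and 392 RPKM.

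Per length, Khk was the most abundant of the 8, at a mean level of 84.3 ± 24.7 RPKM over all libraries (SD, n = 24). Dak followed at 47.6 ± 12.0 RPKM, then Fbp1 at 38.8 ± 21.7, G6pc at 27.5 ± 29.2, Galm at 26.9 ± 6.57, Pck1 at 15.6 ± 23.7, Galk1 at 9.77 ± 1.84 and Galt at 2.36 ± 0.447 RPKM. The pairs of neighbours at the ends of this order kept their places: Khk was above Dak, and Galk1 above Galt, in 24 of 24 libraries. Galt was still not the lowest member everywhere. In replicate 5 of rescue 1,25D it had 1.78 RPKM and Pck1 0.48 RPKM. Neighbours in the middle changed places: Dak was above Fbp1 in 18 libraries, Fbp1 above G6pc in 16 and G6pc above Galm in 7. Galm was above Pck1 in 19, and Pck1 above Galk1 in 8. Thus G6pc and Pck1 held their rank by mean through a few high libraries, and their medians over the 24 libraries were 18.6 and 4.64 RPKM. Khk was 1.14 to 2.57 times Dak over the libraries, and Galk1 was 1.87 to 7.16 times Galt.

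**Figure D1:**
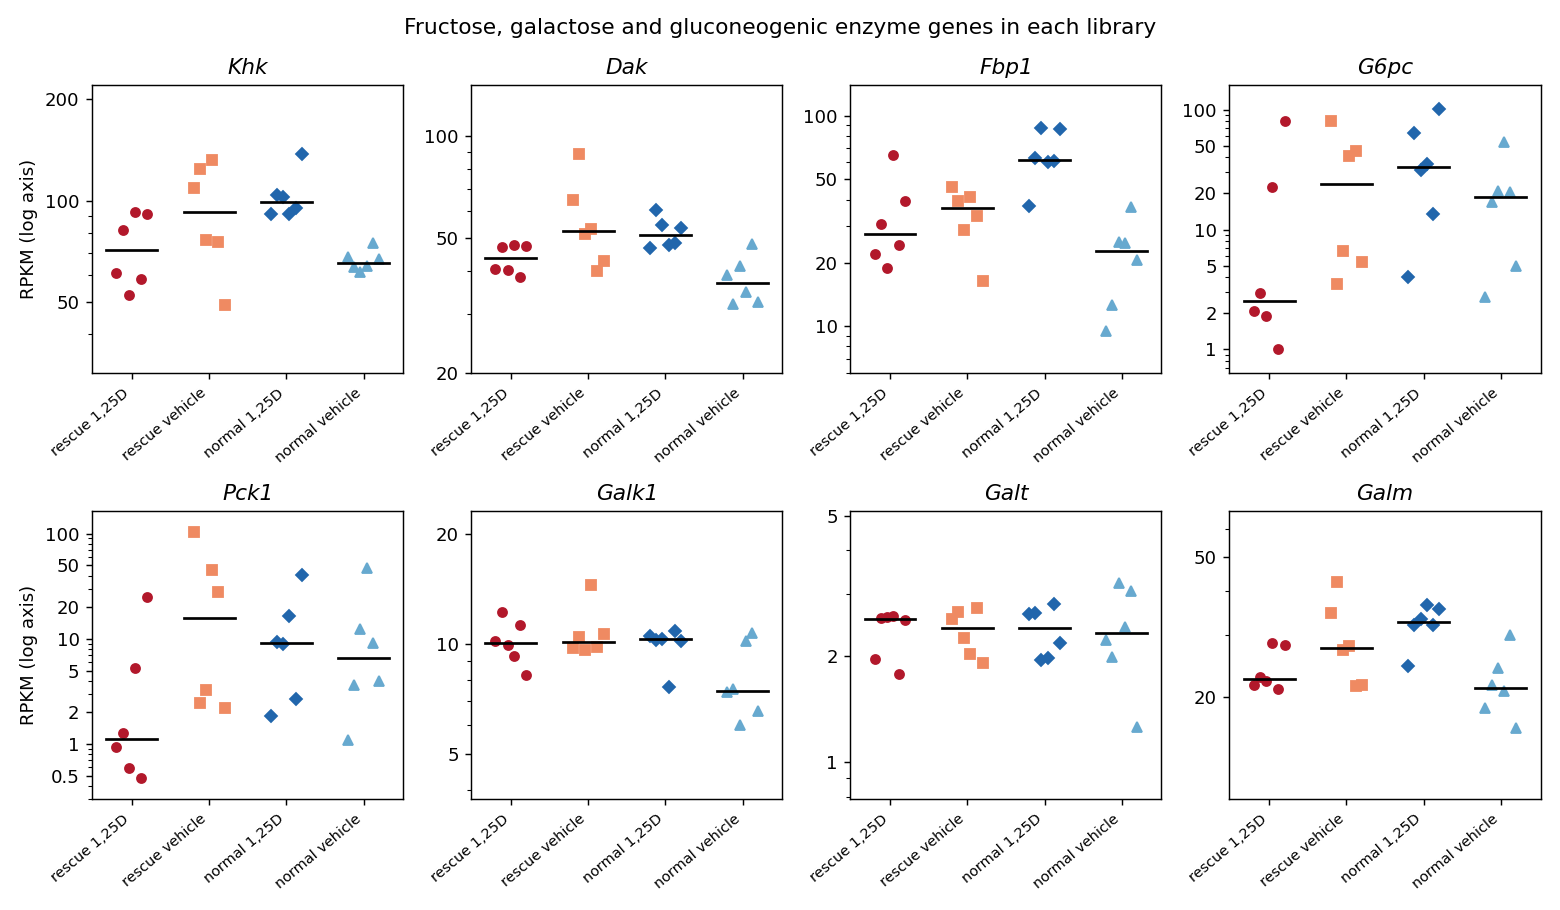
RPKM (log axis, own range for each gene) of the 8 enzyme genes in the 24 libraries; each point is a library, horizontal lines are group medians, and groups run from rescue 1,25D, rescue vehicle and normal 1,25D to normal vehicle. All 6 normal 1,25D libraries lie above all 6 normal vehicle libraries for Khk and Fbp1, while G6pc and Pck1 spread widely inside every group.

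The 3 gluconeogenic genes include the only member called in any comparison and the pair that varied together most closely, so the 250 bases before their annotated starts are shown (RefSeq, build GRCm38.p6, read 5′ to 3′ on the gene's strand). Capitals mark AGGTCA or AGTTCA, hexamers bound by nuclear receptors that pair with the retinoid X receptor, on either strand.
Fbp1, chr13:62888283-62888532, minus strand: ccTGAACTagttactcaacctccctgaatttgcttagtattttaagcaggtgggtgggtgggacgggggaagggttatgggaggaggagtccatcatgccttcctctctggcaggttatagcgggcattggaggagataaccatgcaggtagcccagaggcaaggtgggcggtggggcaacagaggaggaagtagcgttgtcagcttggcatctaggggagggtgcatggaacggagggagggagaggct
G6pc, chr11:101367466-101367715, plus strand: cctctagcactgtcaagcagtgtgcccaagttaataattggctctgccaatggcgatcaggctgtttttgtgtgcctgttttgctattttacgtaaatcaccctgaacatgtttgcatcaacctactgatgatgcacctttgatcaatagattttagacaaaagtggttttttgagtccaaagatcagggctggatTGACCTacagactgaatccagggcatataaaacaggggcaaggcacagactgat
Pck1, chr2:173152823-173153072, plus strand: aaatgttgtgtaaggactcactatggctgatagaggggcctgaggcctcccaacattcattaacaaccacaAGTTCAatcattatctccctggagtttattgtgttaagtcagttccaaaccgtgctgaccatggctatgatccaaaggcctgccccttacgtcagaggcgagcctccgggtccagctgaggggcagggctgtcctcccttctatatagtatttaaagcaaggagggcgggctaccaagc
Fbp1 held 1 AGTTCA, reversed, at -248 from the start, G6pc 1 AGGTCA, reversed, at -54, and Pck1 1 AGTTCA at -179. AGTTCA was also in the windows of Dak, reversed, at -189 and of Galk1 at -243. These letters are common: of 32817 windows of the same length, 14% held AGGTCA and 11.9% held AGTTCA on either strand. CACGTG, the E-box, was in 6.02% of windows, among them those of Khk at -71, Galk1 at -17 and 1 of the 2 Galt windows at -42, but in none of the 3 shown. TGACGTCA, the full form of the cAMP response element, was in 1.55% of windows and in none of the members' windows. Variant forms of this element were not searched, and the Pck1 window held the near match TTACGTCA. Promoters were matched for 7 of the 8 genes, Dak through the symbol Tkfc.

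Fbp1 was the member that rose with 1,25D on the normal diet. It had 37.3, 61.9 and 87.7 RPKM (lowest, median and highest library) with 1,25D, against 9.53, 22.7 and 36.9 RPKM with vehicle. The groups did not overlap, though the lowest 1,25D library stood just above the highest vehicle library. The fold change was 3.18 (log2 1.67, SE 0.31, 95% interval 1.03 to 2.31, adjusted p = 0.00304 by limma with Benjamini-Hochberg adjustment over all 20006 genes tested). It was the only call among the 8 members, where 1.78% of all genes tested were called higher and 1.84% were called in either direction. The call held in all 24 refits that left out 1 library, with log2 values from 1.47 to 1.85. Enterocyte markers were also higher in this comparison: their sums were 5977 to 10956 RPKM with 1,25D and 2076 to 5345 RPKM with vehicle, without overlap, 12 of 12 had a log2 change above 0 and 3 of 12 were called higher. With the mean log2 value of these markers, the enterocyte score, as a covariate, the Fbp1 change was log2 0.80 (adjusted p = 0.187), and it was no longer called. Pancreas markers summed to 25.1 to 14294 RPKM with 1,25D and 1732 to 77727 RPKM with vehicle, with 0 of 12 above 0 and 0 called, and with the pancreas score as a covariate the Fbp1 change was log2 1.48 (adjusted p = 0.0396). Fbp1 overlaps another gene, Gm38679, in the RefSeq annotation, and no source used here says whether reads were counted by strand.

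The other 2 gluconeogenic genes did not pass the test on the normal diet. G6pc had 4.05, 33.3 and 101 RPKM with 1,25D, against 2.74, 18.6 and 53.6 RPKM with vehicle. The groups overlapped, with 2 of 6 libraries with 1,25D above all vehicle libraries (log2 1.00, SE 0.95, 95% interval -0.96 to 2.95, adjusted p = 0.839 by limma). Pck1, the first committed step of the pathway, had 1.86, 9.19 and 40.6 RPKM with 1,25D and 1.10, 6.58 and 47.1 RPKM with vehicle. No library with 1,25D was outside the range of the vehicle libraries on that diet (log2 0.25, 95% interval -1.74 to 2.24, adjusted p = 0.995). The intervals of these 2 genes include changes as large as that of Fbp1 at the spread these genes had.

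Of the fructose enzymes, Khk separated the groups without reaching the threshold on the normal diet. It had 91.1, 99.1 and 138 RPKM with 1,25D against 61.2, 65.4 and 75.0 RPKM with vehicle. All 6 libraries with 1,25D lay above all 6 with vehicle (log2 0.63, SE 0.19, adjusted p = 0.0967 by limma), one of 2 members with groups that did not overlap, where 2.13% of all genes were higher without overlap. Dak had 46.7, 51.0 and 60.6 RPKM with 1,25D and 32.0, 36.9 and 48.0 RPKM with vehicle. Here 4 of 6 libraries with 1,25D were above the whole vehicle group (log2 0.46, SE 0.15, adjusted p = 0.124). Among the galactose enzymes Galm came nearest to the threshold, at 24.5, 32.7 and 36.5 RPKM with 1,25D and 16.3, 21.2 and 30.0 RPKM with vehicle (log2 0.56, SE 0.16, adjusted p = 0.0642). Galk1 was 9.98 ± 1.16 RPKM with 1,25D and 8.09 ± 1.95 RPKM with vehicle (SD, n = 6 each; log2 0.31, adjusted p = 0.353 by limma). Galt was 2.37 ± 0.376 RPKM with 1,25D and 2.36 ± 0.723 RPKM with vehicle, with a 95% interval of its log2 change from -0.31 to 0.37. Khk, Dak and Galm were farther from the threshold with other scaling. With quantile normalization their log2 changes were 0.45, 0.28 and 0.40 (adjusted p = 0.293, 0.43 and 0.206 by limma). With median-of-ratios scaling the adjusted p was 0.242, 0.294 and 0.169. With the enterocyte score as a covariate, the log2 change was 0.11 for Khk, 0.08 for Dak and 0.19 for Galm. That of Galk1 did not shrink with this covariate, at log2 0.38.

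As a list, the 8 genes had a median log2 change of 0.51 with 1,25D on the normal diet, with 8 of 8 above 0, against a median of 0.05 and 58.8% above 0 over all genes. Galt was above 0 by only 0.03, and was below 0 by the same amount with median-of-ratios scaling. At an unadjusted p under 0.05, 5 of 8 members were higher, where 9.74% of all genes were. The share of members is above that background. However, Khk, Fbp1, Galm, Dak, Pck1 and G6pc correlated with the enterocyte marker sum at r from 0.56 to 0.74. The members are therefore not 8 separate observations. Galk1, which was among the 5 higher members, was at r = -0.18 with that sum.

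On the rescue diet no member passed the test after 1,25D, where 0.145% of all genes were called. All 8 log2 changes were below 0 (median -0.28), while 60.9% of all genes were above 0 (median 0.06). Of the 8, Galt was at -0.01, Galk1 at -0.08 and Fbp1 at -0.10. The signs of Galk1 and Fbp1 changed in refits that left out 1 library. Here too the members are not 8 separate observations. Pck1 had 0.48, 1.11 and 24.9 RPKM with 1,25D and 2.23, 15.7 and 103 RPKM with vehicle. Of the 6 libraries with 1,25D, 4 lay below all vehicle libraries (4.65-fold lower, log2 -2.22, SE 0.97, unadjusted p = 0.0303, adjusted p = 0.878 by limma). G6pc had the same shape, at 1.01, 2.52 and 80.4 RPKM with 1,25D against 3.51, 23.95 and 79.7 RPKM with vehicle, again with 4 libraries below the vehicle range, and here with 1 above it (log2 -1.45, SE 0.95, adjusted p = 0.878). Fbp1, called on the normal diet, was 33.3 ± 17.1 RPKM with 1,25D and 34.2 ± 10.6 RPKM with vehicle here (SD, n = 6 each; log2 -0.10, 95% interval -0.74 to 0.54).

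Khk on the rescue diet was 72.9 ± 17.7 RPKM with 1,25D and 94.3 ± 32.4 RPKM with vehicle (log2 -0.33, adjusted p = 0.878 by limma). Its vehicle libraries were split, with 3 between 49.0 and 76.5 RPKM and 3 between 109 and 132 RPKM. Dak was 43.5 ± 4.23 RPKM with 1,25D and 56.9 ± 17.8 RPKM with vehicle (log2 -0.34, unadjusted p = 0.0313), and with Pck1 it made 2 of 8 members lower at an unadjusted p under 0.05, where 1.83% of all genes were. The galactose enzymes stayed closer: the median library had 22.5 RPKM of Galm with 1,25D and 27.5 RPKM with vehicle. Galk1 was 10.2 ± 1.41 RPKM with 1,25D and 10.8 ± 1.85 RPKM with vehicle, and Galt 2.34 ± 0.368 RPKM with 1,25D and 2.36 ± 0.347 RPKM with vehicle (SD, n = 6 each). Enterocyte marker sums were 1602 to 8130 RPKM with 1,25D and 2184 to 11242 RPKM with vehicle, with 1 of 12 markers above 0 and 0 called. Smooth muscle marker sums were 104 to 469 RPKM with 1,25D and 92.2 to 412 RPKM with vehicle, with 8 of 8 markers above 0 and 0 called. With the enterocyte score as a covariate, the log2 change was -1.55 for Pck1, -0.81 for G6pc, -0.20 for Dak and -0.14 for Khk.

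The effect of 1,25D on the rescue diet minus its effect on the normal diet was below 0 for all 8 members (median -0.88). This direction was set by the signs, below 0 on the rescue and above 0 on the normal diet for all 8. Of all genes, 51.7% were above 0 (median 0.01). By the adjusted test 0 of 8 were called, where 0.005% of all genes were. For Fbp1 the effect was log2 -0.10 on the rescue diet and 1.67 on the normal diet, and the difference of -1.76 (SE 0.44) had an unadjusted p = 0.000479 and an adjusted p = 0.204 by limma. Khk differed by -0.95 (SE 0.27, adjusted p = 0.268), Dak by -0.79 (SE 0.21, adjusted p = 0.261) and Galm by -0.81 (SE 0.22, adjusted p = 0.261). These 4 were the members lower at an unadjusted p under 0.05, where 5.59% of all genes were. For Galt the 95% interval of the difference ran from -0.53 to 0.43, and for G6pc and Pck1 from -5.21 to 0.31 and from -5.28 to 0.35. The call of Fbp1 on 1 diet is therefore not shown to differ between diets by the adjusted test. With the enterocyte score as a covariate the differences were -0.59 for Fbp1, -0.25 for Khk, -0.28 for Dak and -0.30 for Galm. For Galk1 the difference was -0.39 without this covariate and -0.49 with it.

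**Figure D2:**
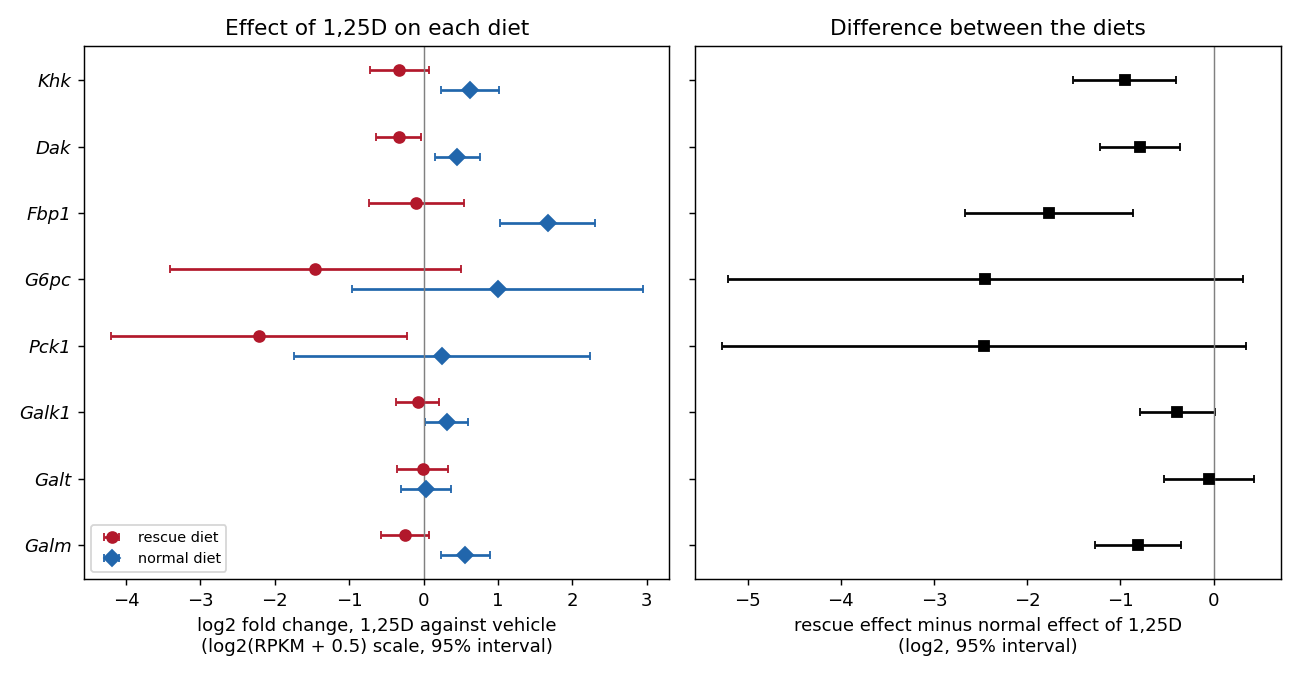
Left, log2 fold change of 1,25D against vehicle for each gene on the rescue diet (circles, upper) and the normal diet (diamonds, lower); right, the rescue effect minus the normal effect; bars are 95% intervals from the fit of all 24 libraries. All 8 points are below 0 on the rescue diet and above 0 on the normal diet, with Galt nearest to 0 on both, at -0.01 on the rescue and 0.03 on the normal diet (the second -0.03 with median-of-ratios scaling), and the intervals of G6pc and Pck1 are several times wider than those of the other genes.

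The lactose-rich rescue diet was compared with the normal diet under each injection. Under vehicle, 0 of 8 members and 0% of all genes were called by limma, while at an unadjusted p under 0.05, 5 of 8 members were higher where 6.58% of all genes were higher. The galactose enzymes had levels of 10.8 ± 1.85 RPKM on the rescue and 8.09 ± 1.95 RPKM on the normal diet for Galk1 (log2 0.42, 95% interval 0.13 to 0.70, adjusted p = 0.578), 29.2 ± 8.08 and 21.9 ± 4.79 RPKM for Galm (log2 0.39, adjusted p = 0.644), and 2.36 ± 0.347 and 2.36 ± 0.723 RPKM for Galt (SD, n = 6 each). Dak had the smallest p, at 56.9 ± 17.8 RPKM on the rescue diet and 38.0 ± 6.16 RPKM on the normal diet (log2 0.54, SE 0.15, unadjusted p = 0.00115, adjusted p = 0.475). Fbp1 (log2 0.71) and Khk (log2 0.43) completed the 5. The groups overlapped for every member. All 8 were above 0, as were 68.9% of all genes, though Galt, at 0.03, was at -0.07 with median-of-ratios scaling. Enterocyte sums were 2184 to 11242 RPKM on the rescue and 2076 to 5345 RPKM on the normal diet, with 12 of 12 markers above 0. Pancreas sums were 41.3 to 10856 RPKM on the rescue and 1732 to 77727 RPKM on the normal diet, with 0 of 12 above 0, and 0 of both lists were called. With the enterocyte score as a covariate, the log2 difference was 0.32 for Dak, 0.17 for Galm, 0.22 for Fbp1 and 0.13 for Khk. That of Galk1 did not shrink with this covariate, at log2 0.46. The median of all genes was itself 0.10 in this comparison and 0.12 after 1,25D, and quantile normalization moved these to 0.00 and 0.01. With quantile normalization the values were 0.28 for Galk1, 0.22 for Galm, 0.35 for Dak, 0.54 for Fbp1 and 0.23 for Khk, all still above 0.

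After 1,25D the sign turned. On the rescue diet 7 of 8 members were below their level on the normal diet, while 70.7% of all genes were above, and 0 of 8 were called, where 0.01% of all genes were. Fbp1 was 33.3 ± 17.1 RPKM on the rescue and 66.0 ± 18.9 RPKM on the normal diet (log2 -1.05, SE 0.31, unadjusted p = 0.00238, adjusted p = 0.366 by limma), with 4 of 6 rescue libraries below all normal ones. Khk (log2 -0.53, unadjusted p = 0.0106), Galm (log2 -0.42, unadjusted p = 0.0127) and G6pc (log2 -2.16, unadjusted p = 0.0317) were the others lower at an unadjusted p under 0.05, which held for 4 of 8 members and for 3.2% of all genes. Galk1 was the exception, at 10.2 ± 1.41 RPKM on the rescue and 9.98 ± 1.16 RPKM on the normal diet (log2 0.03, and -0.04 with quantile normalization and -0.06 with median-of-ratios scaling). With a weight per library, Fbp1, Khk, Galm and G6pc were called (adjusted p from 0.00972 to 0.0361), but so were 1287 genes in all, against 2 without weights. Enterocyte sums were 1602 to 8130 RPKM on the rescue diet and 5977 to 10956 RPKM on the normal diet after 1,25D, and 0 of 12 of these markers were above 0. Smooth muscle sums were 104 to 469 RPKM on the rescue diet and 124 to 282 RPKM on the normal diet, with 8 of 8 markers above 0 and 0 called. With the enterocyte score as a covariate, the log2 difference was -0.37 for Fbp1, -0.12 for Khk, -0.13 for Galm and -0.77 for G6pc. With the smooth muscle score as a covariate it was -0.79 for Fbp1 and -0.95 for G6pc. The 2 comparisons of the diets share no library with each other, but each shares its libraries with the comparisons of the injections. Averaged over both diets, Fbp1 with 1,25D was at log2 0.79 (adjusted p = 0.0833 by limma), and 0 of 8 members were called, where 1.28% of all genes were. At an unadjusted p under 0.05, it was the 1 member that was higher, where 7.45% of all genes were. Averaged over both injections, 0 of 8 members and 0% of all genes were called between the diets. Galk1 (log2 0.22, unadjusted p = 0.0339) was the 1 member higher on the rescue diet before adjustment, where 8.93% of all genes were.

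G6pc and Pck1 differed from the other members in how much they varied between libraries of one group. Within groups the SD on the log2 scale was 1.82 for G6pc and 1.86 for Pck1, against a median of 0.349 for all genes tested. Of 20006 genes, 36 had a larger SD than G6pc and 34 a larger one than Pck1. The highest library of a group exceeded the lowest 79.8-fold, 22.7-fold, 24.8-fold and 19.6-fold for G6pc in rescue 1,25D, rescue vehicle, normal 1,25D and normal vehicle, and 51.9-fold, 46.4-fold, 21.9-fold and 43.0-fold for Pck1. Fbp1 was intermediate, with an SD of 0.59, which was above that of 81.7% of genes. Khk at 0.35, Galm at 0.28, Dak at 0.26, Galt at 0.26 and Galk1 at 0.23 were at or under the median gene.

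**Figure D3:**
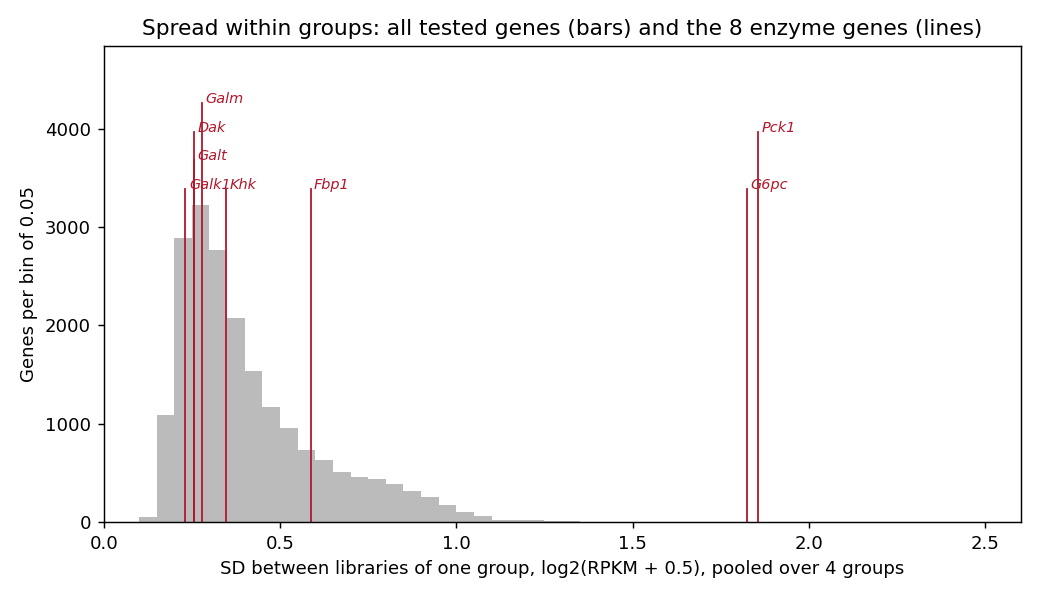
Number of genes (bars, per bin of 0.05) by their SD between libraries of one group on the log2(RPKM + 0.5) scale, pooled over the 4 groups, with the 8 enzyme genes as lines. G6pc and Pck1 lie at 1.82 and 1.86, far beyond the median gene at 0.349; 17 of 20006 genes are beyond the end of the axis.

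The 2 varied together. Correlations were taken over the 24 libraries after subtracting group means, with 100000 permutations within groups, and 36 were computed in this family. G6pc and Pck1 had Pearson r = 0.94 and Spearman rho = 0.95, each with a permutation p of 1e-05, the smallest the permutations can give (adjusted 0.00036). Without the 2 libraries farthest from the median in G6pc, r was 0.93. Within rescue 1,25D, rescue vehicle, normal 1,25D and normal vehicle it was 0.99, 0.98, 0.91 and 0.91. In each group the same library was the highest for both genes: replicate 6 of rescue 1,25D, replicate 1 of rescue vehicle, replicate 6 of normal 1,25D and replicate 4 of normal vehicle. G6pc was 0.771 to 6.85 times Pck1 over the 24 libraries, a range far narrower than that of either gene, which was 99.7-fold for G6pc and 215-fold for Pck1. Fbp1, the third gluconeogenic gene, followed them less closely, at r = 0.67 with G6pc (rho 0.74, permutation p 0.00096 and 0.00028, adjusted 0.0043 and 0.0022) and r = 0.68 with Pck1 (rho 0.75, permutation p 0.00038 and 5e-05, adjusted 0.0023 and 0.0006). Without the 2 farthest libraries r was 0.62 and 0.67.

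**Figure D4:**
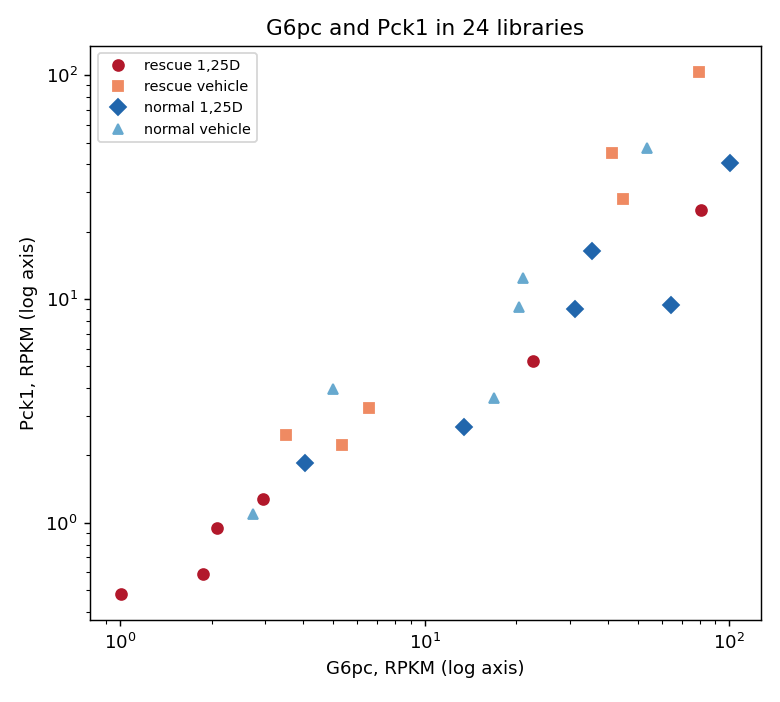
Pck1 against G6pc, both in RPKM on log axes, in 24 libraries; symbols and colours mark the 4 groups. The points form 1 band from about 1 RPKM of G6pc in a rescue 1,25D library up to 101 RPKM in a normal 1,25D library, and each group covers a large part of it.

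In the fructose and galactose branches the closest pair was Dak with Galm, at r = 0.84 and rho = 0.75 (permutation p 3e-05 and 0.00031, adjusted 0.00036 and 0.0022; r = 0.74 without the 2 farthest libraries), though within normal 1,25D r was 0.32. Khk with Dak gave r = 0.66 and rho = 0.68 (adjusted 0.019 and 0.0034), and 0.71 without the 2 farthest libraries. Galk1 and Galt, successive steps of the galactose pathway, gave r = 0.11 and rho = 0.02 (permutation p 0.72 and 0.92, adjusted 0.78 and 0.96). The closest member to Galk1 was Khk, at r = 0.17.

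Marker sums moved with several members between libraries of one group. The enterocyte sum correlated with Khk at r = 0.74 (rho 0.72, adjusted 0.0019 and 0.0032), Fbp1 at r = 0.74 (rho 0.79, adjusted 0.0019 and 0.00054), Galm at r = 0.65 (rho 0.65, adjusted 0.0058 and 0.0081), Dak at r = 0.64 (rho 0.65, adjusted 0.009 and 0.007), Pck1 at r = 0.57 (rho 0.62) and G6pc at r = 0.56 (rho 0.57, adjusted 0.031 and 0.022), by permutation. Without the 2 farthest libraries these were 0.67, 0.72, 0.61, 0.59, 0.50 and 0.45. They did not hold alike in every group: for Khk r was 0.76, 0.93 and 0.78 in rescue 1,25D, rescue vehicle and normal 1,25D but 0.00 in normal vehicle, and for G6pc it was 0.15 in rescue vehicle. Galk1 stood apart at r = -0.18 and rho = -0.21 (permutation p 0.43 and 0.36). The sum of 8 smooth muscle markers ran the other way for the pair with the widest spread, at r = -0.76 and rho = -0.69 for G6pc (adjusted 0.0035 and 0.018 over 16 correlations) and r = -0.70 and rho = -0.67 for Pck1 (adjusted 0.0079 and 0.018), and at -0.68 for both without the 2 farthest libraries. Smooth muscle sums were 104 to 469 RPKM in rescue 1,25D, 92.2 to 412 in rescue vehicle, 124 to 282 in normal 1,25D and 161 to 619 RPKM in normal vehicle, with 0 of 8 markers called in any comparison. The pancreas sum correlated with G6pc at r = -0.34 and Pck1 at r = -0.34 (adjusted 0.41 each). The part of these cell types in the members' values was not tested beyond the covariate fits given here. Those fits cannot tell it apart from a change of the markers themselves with the injection. On the normal diet the enterocyte sums did not overlap between the injections.

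**Figure D5:**
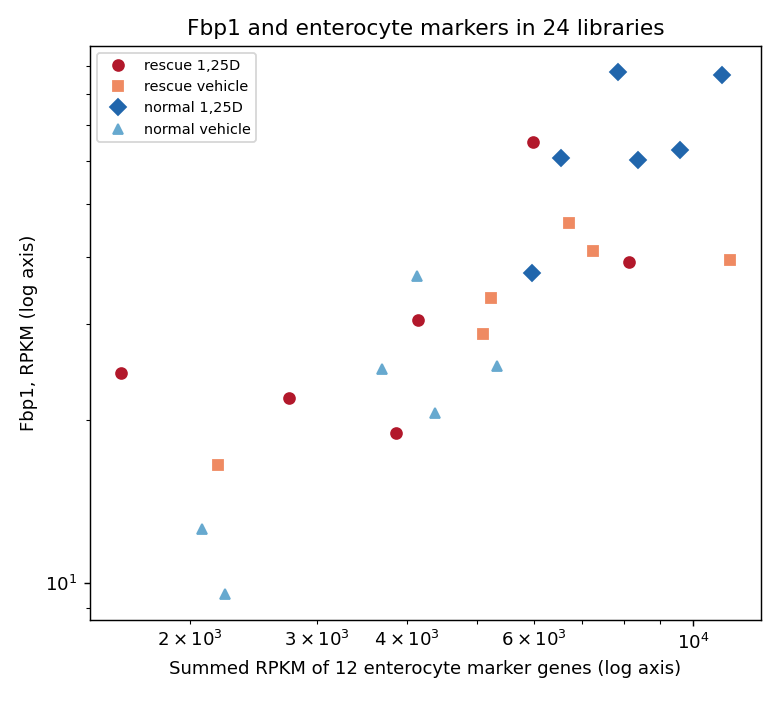
Fbp1 in RPKM against the summed RPKM of 12 enterocyte marker genes, both on log axes, in 24 libraries of the 4 groups. Normal 1,25D libraries (diamonds) lie at 5977 RPKM of marker sum or more, and normal vehicle libraries (triangles) at 5345 or less; the correlation of their logs within a group was between 0.64 and 0.90.

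For each member the 3 genes with the most similar pattern were sought by the same Pearson r, over 24 libraries after subtracting group means, among the 15722 genes that averaged at least 1 RPKM. For both G6pc (r = 0.95) and Pck1 (r = 0.96) the first was Pdk4, a kinase that inhibits pyruvate dehydrogenase. G6pc was next most like Pck1 and Tmem139 (r = 0.94 each), and Pck1 was next most like Fam134b, a receptor for autophagy of the endoplasmic reticulum, and Tmc7 (r = 0.96 each). Fbp1 was most like Sepp1, which encodes the plasma selenium carrier selenoprotein P (r = 0.92), Retsat, retinol saturase (r = 0.91), and Slc37a4, the transporter that brings glucose 6-phosphate to glucose-6-phosphatase (r = 0.91). Dak was nearest to Scarb1, a receptor for high-density lipoprotein (r = 0.88), 2210404O07Rik (r = 0.85) and Galm (r = 0.84), and Galm to 2210404O07Rik (r = 0.90), Ehd1, a protein of endocytic recycling (r = 0.88), and LOC100502992 (r = 0.85). Among the 3 genes nearest to Khk were the glycolytic gene Pkm2 and the aminopeptidase gene Xpnpep1 (r = 0.85 each). Galk1 was nearest to Abhd10 (r = 0.84), Gins2, of the DNA replication machinery, and Lyrm4 (r = 0.81 each). Galt had the weakest likeness, at r = 0.79 with Wdr7 and with Rab35, a small GTPase, and 0.78 with Tex2. These are the highest of many correlations and are given as a description.

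Among the enzymes around these steps, the neighbours of fructose, galactose and glycerol metabolism had 20 of 21 genes tested and 0 called by limma in any of the 7 comparisons. At an unadjusted p under 0.05, 2 were lower with 1,25D on the rescue diet and 7 higher on the normal diet, where 1.83% and 9.74% of all genes were. With 1,25D, 4 of the 20 were above 0 on the rescue diet (60.9% of all genes) and 16 of the 20 on the normal diet (58.8% of all genes). Sord, which makes fructose from sorbitol, had the smallest p of this list. After 1,25D it had 17.5, 21.7 and 37.3 RPKM on the rescue diet, against 39.1, 48.2 and 53.8 RPKM on the normal diet, and these groups did not overlap (log2 -0.95, SE 0.18, adjusted p = 0.111). Its effect of 1,25D differed between the rescue and normal diets by log2 -1.17 (SE 0.26, adjusted p = 0.149). With the enterocyte score as a covariate these 2 values for Sord were -0.56 and -0.50 (adjusted p = 0.745 and 0.407 by limma). Both were called with a weight per library (adjusted p = 0.000563 and 0.0259) and without rescue 1,25D replicate 4 (adjusted p = 0.0118 and 0.037).

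The neighbours in gluconeogenesis and glycolysis had 27 of 28 genes tested, of which 2 rose with 1,25D on the normal diet, 0 fell, and 0 were called in the other 6 comparisons. Of all genes, 1.78% were called higher on the normal diet. At an unadjusted p under 0.05, 9 of the 27 were higher and 1 was lower there. Of all genes, 9.74% were higher and 445 of 20006 lower by that rule. Gpt, alanine aminotransferase, which feeds alanine carbon to pyruvate, averaged 66.6 ± 10.6 RPKM with 1,25D and 24.7 ± 10.9 RPKM with vehicle (SD, n = 6 each; 2.88-fold, log2 1.53, SE 0.36, adjusted p = 0.024 by limma), without overlap. Its call was lost in 6 of the 24 refits that left out 1 library, in each case a library of the normal diet, and with the enterocyte score (log2 0.25, adjusted p = 0.637) or the pancreas score (log2 1.34, adjusted p = 0.162) as a covariate. It was also lost with quantile normalization (adjusted p = 0.0678) and median-of-ratios scaling (adjusted p = 0.0753). Fbp2, a paralog of Fbp1 best known from muscle, was more abundant than Fbp1 here and averaged 229 ± 29.3 RPKM with 1,25D and 162 ± 24.7 RPKM with vehicle (1.42-fold, adjusted p = 0.0477), a call kept in 8 of the 24 refits that left out 1 library. It was lost in 10 of 13 other settings, among them quantile normalization (log2 0.35, adjusted p = 0.134), median-of-ratios scaling (adjusted p = 0.204) and the enterocyte score as a covariate (log2 0.26, adjusted p = 0.43). Slc37a4, partner of G6pc, was 60.3 ± 8.96 RPKM with 1,25D and 43.4 ± 14.96 RPKM with vehicle on the normal diet (log2 0.52, adjusted p = 0.413). Of 12 regulators of these enzymes, 12 were tested and 0 were called by limma in any comparison. After 1,25D on the rescue diet 1 was lower at an unadjusted p under 0.05, where 1.83% of all genes were. By that rule 0 of the 12 changed on the normal diet, where 9.74% of all genes were higher. Among them were Ppara, a nuclear receptor of fasting (log2 0.60 with 1,25D on the normal diet, adjusted p = 0.478), and Cebpa, a transcription factor of Pck1 (log2 -0.55 on the rescue against the normal diet after 1,25D, adjusted p = 0.48).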

How the data were processed

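RNA was isolated from duodenum with TRI-reagent and 8 µg was depleted of ribosomal RNA with RiboMinus before directional ScriptSeq libraries were made, per the labels' protocols. The submitters' processing notes name TopHat and mm9, with no version of the aligner. No source used here gives the program or annotation used for counting. For each library the authors deposited a table of RPKM, per the file headers, with 30795 entries for 25410 symbols. These values were used as deposited, and entries sharing a symbol were summed. Read totals are not in the tables, so absolute depth is unknown; summed RPKM ran from 541395 to 697913.

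limma 3.58.1 in R 4.3.3 was run on log2(RPKM + 0.5) with an intensity trend and a mean for each group, leaving 20 residual degrees of freedom, for the 20006 genes that reached 0.5 RPKM in 6 or more libraries. Tests were two-sided, adjusted by Benjamini-Hochberg over all these genes, and called at an adjusted p under 0.05. Low genes have understated fold changes on this scale. There were 7 comparisons: the injections within a diet, the diets within an injection, the interaction of both factors, and the average of each. Scores used as covariates were mean log2 values of a marker list. Tables and figures were made with Python 3.11.15, numpy 2.4.6, pandas 2.3.3, scipy 1.17.1 and matplotlib 3.10.9. The fit was tested on simulated data. Alternatives changed the pseudocount, filter, scaling, weights, libraries or covariates, or added the replicate number as a block.

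The members, gene lists and markers were chosen with earlier results of these data known. Named genes were the 8 members, every neighbour or regulator called in any comparison, up to 3 per list and comparison by smallest p, the 3 genes most like each member, and Cyp24a1; the text names a part of these, and some are not reported here. The marker genes are given by role. Correlations with smooth muscle and pancreas sums were added after values were seen. Dak and Galk1 overlap Cyb561a3 and Itgb4, and Galt overlaps Gm42274, in RefSeq, so reads there may be shared. Coordinates are given only for RefSeq promoter windows, since the genome at hand was not of the files' build.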

Additional observations from a re-analysis of the deposited data

Results flagged for a closer look

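On the RPKM scale, single libraries stood far from the other 5 of their group in 8 of 32 combinations of gene and group. Chance flags about 1 in 20 groups of normally spread values, which the RPKM of widely ranging genes are not. On the log2(RPKM + 0.5) scale of the tests, 3 of the 8 remained, that of Khk and both of Galk1, and the 5 of G6pc and Pck1 did not. Replicate 6 of rescue 1,25D had 80.4 RPKM of G6pc (next highest 22.6) and 24.9 RPKM of Pck1 (next highest 5.30). Replicate 4 of normal vehicle had 53.6 RPKM of G6pc (next 21.1) and 47.1 RPKM of Pck1 (next 12.4). Replicate 6 of normal 1,25D had 40.6 RPKM of Pck1 (next 16.4), and 138 RPKM of Khk (next 104). In the enterocyte marker sum, replicate 6 was the highest library of both 1,25D groups, at 8130 RPKM in rescue 1,25D and 10956 RPKM in normal 1,25D, while replicate 4 of normal vehicle, at 3691 RPKM, was not the highest of its group. Galk1 had 14.5 RPKM in replicate 4 of rescue vehicle (next 10.7) and 7.66 RPKM in replicate 4 of normal 1,25D, the lowest of that group (next 10.2).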

How the results depend on the processing

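Over 37 alternative settings, 24 of them leaving out 1 library each, 36 results for the members other than Galt were refitted 1324 times: 24 refits in 9 results changed sign, 1 lost a call and 11 gained one. Galt, at most 0.05 from 0 in log2 as deposited, changed sign in 36 of 184 refits, and with quantile normalization was at -0.24 for the difference between the effects and -0.22 for diet after 1,25D. The numbers of members called were unchanged in all other settings than these: with 1,25D on the normal diet, 2 with only the 2 groups compared (Khk added), 0 with the enterocyte covariate, and 1 to 3 leaving out 1 library (Galm without normal vehicle replicate 5 or normal 1,25D replicate 1, Khk without rescue vehicle replicate 6, Dak and Galm without rescue vehicle replicate 2). For rescue against normal diet after 1,25D there were 4 with a weight per library, and for 1,25D averaged over diets 0 to 1 leaving out 1 library (Fbp1 without normal vehicle replicate 5, log2 0.88). The sign changes with the enterocyte covariate, in log2, were: Dak, rescue against normal after 1,25D, 0.0437; Fbp1, 1,25D on the rescue diet, 0.22; G6pc -0.78 and Pck1 -1.60 for 1,25D on the normal diet; G6pc -0.73 and Pck1 -0.31 for diet under vehicle; Pck1, difference between the effects, 0.0514; Galk1, diet after 1,25D, -0.0306. Other covariates gave Pck1 on the normal diet -0.55 (pancreas) and -0.59 (smooth muscle), and G6pc for diet under vehicle -0.41 (pancreas), which was -0.0782 with a weight per library. Galk1 for diet after 1,25D was -0.0351 with quantile normalization and -0.0619 with median-of-ratios scaling. Covariates, and the refit without normal vehicle replicate 6 and rescue 1,25D replicate 4, were chosen after seeing the data; the cause of these changes was not tested. Leaving out 1 library, 5 results changed sign: Fbp1 with 1,25D on the rescue diet ran from -0.3128 to 0.0388, G6pc for diet under vehicle from -0.1565 to 0.7076, Pck1 with 1,25D on the normal diet from -0.1989 to 0.7807, Galk1 with 1,25D on the rescue diet from -0.1302 to 0.006, and Galk1 for diet after 1,25D from -0.043 to 0.0841. The number of all genes called on the normal diet was 368, between 200 and 453 leaving out 1 library and 105 with the enterocyte covariate; on the rescue diet it was 29, between 11 (only the 2 groups compared) and 90 (weights); after 1,25D between diets 2, up to 1287 (weights); for the difference 1, up to 32 (weights). The labels do not tie the replicate numbers to a shared batch, and pairing by number was neither evident nor excluded. Same-numbered deviations correlated at -0.44 to 0.48 (median 0.00), with 13 of 36 pairs over 0.1, and 3 of 24 libraries correlated best with their own number. With the replicate number as a block, Fbp1 on the normal diet stayed at log2 1.67 (adjusted p = 0.00483), 1 member and 334 genes were called there, and 0 members elsewhere. Depth per gene cannot be given, since read totals were not in the tables.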
